A study of Mus musculus with 2 samples.

Results

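The proteasome subunit genes were taken as the protein-coding genes of the RefSeq annotation of mouse build GRCm38 whose symbol starts with Psma, Psmb, Psmc, Psmd, Psme, Psmf or Psmg followed by a digit. There were 51 such genes among 21887 protein-coding genes on the assembled chromosomes. They comprised 15 genes of the core particle, 17 of the regulatory particle, 4 of the immunoproteasome and thymoproteasome, 7 of assembly chaperones, and 6 of proteasome activators and the inhibitor. The remaining 2, Psmc3ip and Psme3ip1, met the symbol rule without encoding a subunit. Psmc3ip encodes a partner of recombination enzymes in meiosis, and Psme3ip1 encodes a protein that binds the activator Psme3.

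The study sequenced chromatin immunoprecipitated with an anti-Usp16 antibody, and with IgG in a second library, from bone marrow cells positive for the surface proteins c-Kit and Sca-1, which enrich for blood stem and progenitor cells. There was 1 library per antibody. The donor mice of both libraries carried Mx1-Cre and loxP-flanked Usp16 alleles. Mx1-Cre is a recombinase under an interferon-responsive promoter, and the labels do not give whether it had been induced, the age of the mice or whether animals were pooled. Induction would delete Usp16, the antibody's target, so it is unknown whether the cells held the protein. The peaks are named here after the antibody alone. Usp16 removes ubiquitin from histone H2A. The data are 1 deposited list of 5079 peaks in build mm10, which names the same assembly as GRCm38. With no replicates, samples could not be tested against each other, and the values below describe this list alone. The score of a peak is the authors' peak caller's own value. The lowest listed score was 50, so weaker sites are not in the list and a gene without a peak is not shown to lack Usp16. Read depth is unknown, the IgG signal was not analysed here, and the list holds no expression, so the sorted cell type could not be checked against its markers.

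The proteasome degrades proteins marked with chains of ubiquitin, and every dividing cell needs it. Its core particle is a barrel of alpha and beta rings, with the proteolytic sites on 3 of the beta subunits. The regulatory particle caps the barrel, recognises the ubiquitin chain, removes it and unfolds the substrate with a ring of ATPases. In immune cells and under interferon the catalytic beta subunits can be exchanged for immunoproteasome forms, which shape the peptides shown by MHC class I molecules. Dedicated chaperones assemble both particles.

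To show what lay under the peaks, the bases from 100 before to 20 after the listed start of transcription are given from RefSeq (GRCm38.p6) for the 6 members with the highest-scoring peaks over a RefSeq promoter. Each is written 5′ to 3′ on the gene's strand. Capitals mark matches to any of the 8 motifs described further below.
Psmb5 (chr14:54617976-54618095, minus strand): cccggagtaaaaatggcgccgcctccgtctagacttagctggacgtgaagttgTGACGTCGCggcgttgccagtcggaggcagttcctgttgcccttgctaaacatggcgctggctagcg
Psmg3 (chr5:139826875-139826994, minus strand): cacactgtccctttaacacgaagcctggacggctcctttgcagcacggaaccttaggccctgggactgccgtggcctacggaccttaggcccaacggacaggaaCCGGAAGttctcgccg
Psmd1 (chr1:86064519-86064638, plus strand): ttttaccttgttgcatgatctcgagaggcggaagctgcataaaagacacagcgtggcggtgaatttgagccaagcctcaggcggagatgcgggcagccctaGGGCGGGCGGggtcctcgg
Psmf1 (chr2:151741291-151741410, minus strand): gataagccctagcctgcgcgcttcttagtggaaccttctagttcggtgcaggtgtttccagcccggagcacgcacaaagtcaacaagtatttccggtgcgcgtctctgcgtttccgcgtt
Psmc1 (chr12:100110102-100110221, plus strand): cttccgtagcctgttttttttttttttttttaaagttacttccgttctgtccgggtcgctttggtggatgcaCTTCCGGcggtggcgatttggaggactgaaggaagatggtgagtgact
Psmd5 (chr2:34870943-34871062, minus strand): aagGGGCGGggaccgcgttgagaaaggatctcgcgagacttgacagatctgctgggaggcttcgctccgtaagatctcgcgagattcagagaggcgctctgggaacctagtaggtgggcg
Both listed starts of Psmc2 and Psma6 are shown next, since in each gene the peak lay over the inner start and not over the outer one.
Psmc2, outer start (chr5:21785175-21785294, plus strand): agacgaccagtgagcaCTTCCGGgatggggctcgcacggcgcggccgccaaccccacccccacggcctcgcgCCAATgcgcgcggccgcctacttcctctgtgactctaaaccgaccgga
Psmc2, inner start (chr5:21786647-21786766, plus strand): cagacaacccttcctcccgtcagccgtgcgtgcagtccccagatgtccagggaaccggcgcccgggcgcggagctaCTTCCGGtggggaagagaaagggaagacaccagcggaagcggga
Psma6, outer start (chr12:55384122-55384241, plus strand): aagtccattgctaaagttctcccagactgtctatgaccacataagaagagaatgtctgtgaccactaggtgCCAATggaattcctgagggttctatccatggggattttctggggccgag
Psma6, inner start (chr12:55398725-55398844, plus strand): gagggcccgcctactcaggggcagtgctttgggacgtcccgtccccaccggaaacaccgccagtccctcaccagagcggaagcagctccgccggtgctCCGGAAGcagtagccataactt
For contrast, 1 member without a peak at an end or a listed start is shown for each class of subunits or partners that had one.
Psma2 (chr13:14613142-14613261, plus strand): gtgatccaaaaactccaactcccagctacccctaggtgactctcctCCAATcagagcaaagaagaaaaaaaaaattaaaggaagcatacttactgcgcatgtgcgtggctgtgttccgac
Psmb4 (chr3:94886939-94887058, minus strand): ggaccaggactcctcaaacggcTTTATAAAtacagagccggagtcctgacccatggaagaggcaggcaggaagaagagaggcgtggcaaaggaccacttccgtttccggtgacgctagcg
Psmb10 (chr8:105938373-105938492, minus strand): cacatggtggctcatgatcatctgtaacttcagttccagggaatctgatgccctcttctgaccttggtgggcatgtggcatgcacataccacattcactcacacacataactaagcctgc
Psmc5 (chr11:106256085-106256204, plus strand): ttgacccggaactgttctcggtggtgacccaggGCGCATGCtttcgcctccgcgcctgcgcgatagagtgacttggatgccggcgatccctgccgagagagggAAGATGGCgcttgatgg
Psmd11 (chr11:80428515-80428634, plus strand): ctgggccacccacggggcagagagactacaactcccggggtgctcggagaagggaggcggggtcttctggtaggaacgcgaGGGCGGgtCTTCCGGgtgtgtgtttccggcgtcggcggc
Psmd10 (chrX:140956692-140956811, minus strand): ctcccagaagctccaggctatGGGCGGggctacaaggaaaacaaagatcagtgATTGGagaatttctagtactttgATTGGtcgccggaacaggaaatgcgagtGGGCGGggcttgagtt
Psme1 (chr14:55578394-55578513, plus strand): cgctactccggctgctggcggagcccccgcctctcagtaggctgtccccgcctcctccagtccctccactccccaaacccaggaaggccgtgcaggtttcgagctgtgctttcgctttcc

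A gene was counted as having a gene-end peak when a listed peak overlapped, by at least 1 bp, the window of 1 kb to either side of an annotated end. Such a peak was listed for 17 of the 51 genes (33.3%, exact 95% Clopper-Pearson interval 20.8 to 47.9%, counting error only), against 13.9% of all protein-coding genes (3033 of 21887). Without Psmc3ip and Psme3ip1 the count was 16 of 49 (32.7%). The 17 genes had 17 distinct peaks, so no peak was shared between members. Each of the 17 peaks covered the annotated end base itself, a count not made over all protein-coding genes. The share of genes with such a peak was 40.0% for the core particle (6 of 15), 35.3% for the regulatory particle (6 of 17) and 57.1% for assembly chaperones (4 of 7). No gene-end peak was listed for the 4 immunoproteasome and thymoproteasome genes or for the 6 activator and inhibitor genes. The exact 95% intervals of these 2 counts reached up to 60.2% and 45.9%. They include the share of all coding genes, so 0 peaks in classes this small is not shown to be a low share.

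**Figure D1:**
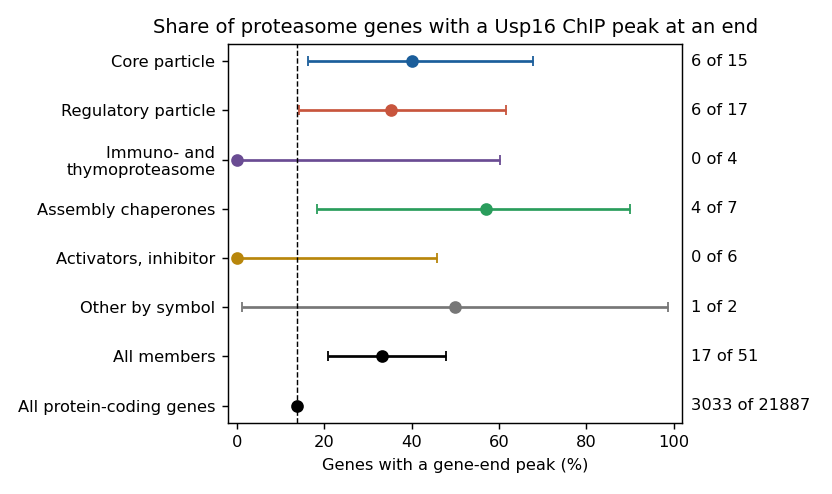
Percentage of genes with a gene-end peak (x axis) for each class of proteasome genes, all 51 members and all 21887 protein-coding genes (y axis), with exact 95% binomial intervals as bars and the dashed line at the share of all protein-coding genes (13.9%). The core particle, regulatory particle and assembly chaperones lie right of the line, and the immunoproteasome and the activators with the inhibitor stand at 0 with wide intervals.

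Within the core particle, 2 of the 8 alpha ring genes, Psma1 and Psma3, and 4 of the 7 beta ring genes had a gene-end peak. The Psma1 peak (chr7:114275825-114276954) had a score of 130.84, higher than 86.7% of all listed peaks. The Psma3 peak (chr12:70968439-70969765) scored 57.21, lower than most of the list, and covered the whole of a lysine tRNA gene, n-TKctt17, which lies 91 bp from the lower end of the Psma3 record. Its midpoint was 54 bp from the middle of the tRNA gene, 181 bp from the annotated upstream end of Psma3 and 5521 bp upstream of its listed start. The peak covered both the tRNA gene and the annotated end of Psma3, but not its listed start. Which of the 2 it belongs to was not tested.

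Psma6 had no gene-end peak, but a peak of score 55.87 (chr12:55398545-55399415) lay inside its record, with its midpoint 155 bp downstream of the inner of 2 listed starts. That start lies 14.6 kb inside the record. No peak was listed at an end or a listed start of Psma2, Psma4, Psma5 and Psma7, or at an end of Psma8, the testis form of the alpha ring subunit made from Psma7. For these 5 genes the nearest peak midpoint lay between 2.76 kb (Psma5) and 631 kb (Psma2) from a gene end.

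Among the 7 constitutive beta ring genes, Psmb2, Psmb3, Psmb5 and Psmb7 had a gene-end peak. The Psmb5 peak (chr14:54617773-54618568, 796 bp wide) had the highest score of any member, 293.13, and ranked 95 of 5079. It also reached to within 1 kb of an end of the microRNA gene Mir686. Psmb5 encodes the chymotrypsin-like catalytic subunit, the main target of proteasome inhibitor drugs. The peak of Psmb7, the trypsin-like subunit gene, scored 110.79 (chr2:38643656-38644216), with its midpoint 16 bp from the gene end. Psmb6, the gene of the caspase-like subunit, had none, and its nearest peak midpoint was 93.1 kb away. Among the 4 genes for beta subunits without catalytic activity, Psmb2 had the second highest member score at 191.55 (chr4:126677310-126678030), with the midpoint 33 bp from the gene end. The Psmb3 peak scored 83.36 (chr11:97702097-97703640) and was the widest at a member, 1544 bp. It also covered the asparagine tRNA gene n-TNgtt8 and came within 1 kb of an end of Pcgf2, a Polycomb subunit gene. The peak midpoint lay 383 bp from the middle of the tRNA gene and 566 bp upstream of the Psmb3 start. Psmb1 and Psmb4 had no gene-end peak, with the nearest midpoints at 466 and 46.8 kb.

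With the peaks within 1 kb of tRNA gene ends left out, a setting chosen after seeing the data, Psma3 and Psmb3 lost their peak. The core particle count was then 4 of 15 (26.7%) and that of all members 15 of 51 (29.4%), beside 13.7% of all coding genes. The part that the tRNA genes have in these 2 peaks was not tested.

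No immunoproteasome or thymoproteasome gene had a peak at an end or a listed start. Psmb8, Psmb9 and Psmb10 replace Psmb5, Psmb6 and Psmb7, and Psmb11 replaces Psmb5 in cortical epithelial cells of the thymus. Psmb8 and Psmb9 lie in the MHC region of chromosome 17 with their starts 10.9 kb apart, and the peak nearest to both was the same one of score 54.39 (chr17:34135128-34135678) inside H2-DMa, 62.8 kb from Psmb8 and 46.6 kb from Psmb9. For Psmb10 the nearest midpoint was 54.8 kb away, at the ends of Nutf2 and Edc4. Psmb11 is the neighbour of Psmb5 on chromosome 14, on the opposite strand with starts 7.32 kb apart. The peak of score 293.13 lay over the Psmb5 start, 7.14 kb from the Psmb11 start, and no peak lay at Psmb11. Of the 3 constitutive catalytic genes 2 had a gene-end peak, and of their 4 exchange forms 0 did, beside 13.9% of all protein-coding genes. With so few genes, 0 of 4 is not shown to be below that share. Whether the counts of the 2 sets differ was not tested. Neither expression nor the IgG signal of these genes was analysed here.

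**Figure D2:**
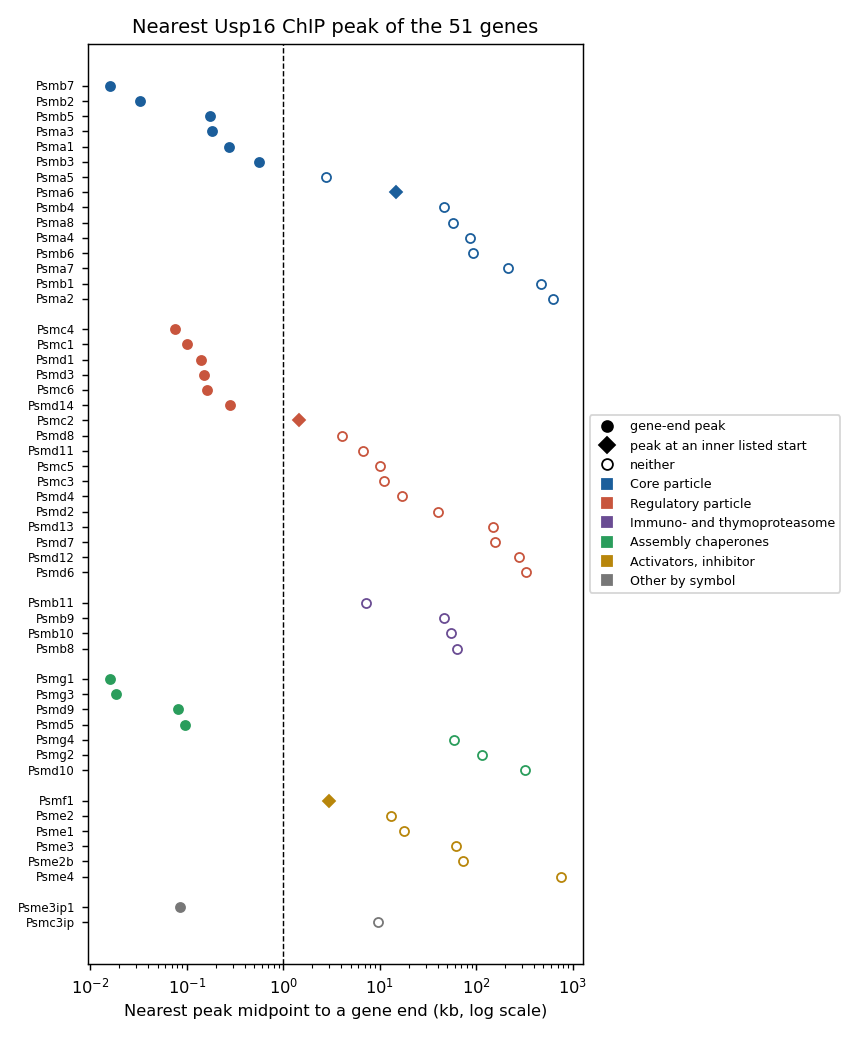
Distance in kb (log scale) from the nearer annotated end of each of the 51 genes to the nearest peak midpoint, by class, with filled circles for genes with a gene-end peak, diamonds for genes with a peak only at an inner listed start and open circles for the rest. The 17 filled circles lie below 0.57 kb, and the 4 immunoproteasome and thymoproteasome genes lie between 7.14 and 62.8 kb.

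In the regulatory particle, 3 of the 6 ATPase genes had a gene-end peak. Psmc1 scored 143.49 (chr12:100109736-100110469), Psmc4 scored 85.63 (chr7:28049773-28050561), and Psmc6 scored 51.61 (chr14:45329247-45330076), close to the lowest score listed. Psmc2 missed the rule by little: the edge of its nearest peak was 1173 bp from the gene end. That peak (chr5:21786448-21787048, score 58.2) had its midpoint 1 bp from the inner of the 2 listed starts of Psmc2, which lies 1472 bp inside the record. Counting it, 4 of the 6 ATPase genes had a peak over an end or a listed start, a joint count not made over all coding genes. Psmc3, which has no listed start, and Psmc5 had none, with the nearest midpoints at 11.0 and 9.96 kb, at the ends of other genes.

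Of the 11 non-ATPase subunit genes, Psmd1, Psmd3 and Psmd14 had a gene-end peak. Psmd1 encodes the large scaffold subunit of the base and scored 162.93 (chr1:86064069-86064886), and Psmd3, a lid subunit gene, scored 155.84 (chr11:98681886-98682921). Psmd14, the gene of the deubiquitinase of the particle, had the lowest score at any member, 51.21 (chr2:61711615-61712334). Among members with a listed start its peak was shifted farthest into the gene, with the midpoint 281 bp downstream of the start. The genes of the ubiquitin receptor Psmd4 and of the other large scaffold subunit, Psmd2, had no gene-end peak, and neither did Psmd6, Psmd7, Psmd8, Psmd11, Psmd12 and Psmd13. Psmd11 held a peak of score 54.37 within its record, 6.80 kb from the closer end and 37.8 kb from its listed start. The peak nearest to Psmd8, 4.11 kb away, lay at the ends of Spred3 and Ggn. For the other 6 genes the nearest midpoint was 16.8 to 333 kb away.

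Of the 7 assembly chaperone genes, 4 had a gene-end peak. Psmd5 and Psmd9, chaperones of the ATPase ring, scored 133.11 (chr2:34870616-34871505) and 77.0 (chr5:123227916-123228626), while Psmd10, the third of this kind and the only member on chromosome X, had its nearest peak midpoint 320 kb away. The core particle chaperones work as the pairs of Psmg1 with Psmg2 and of Psmg3 with Psmg4. In each pair 1 gene had a gene-end peak and the other did not. Psmg3 scored 171.66 (chr5:139826560-139827265), and its midpoint was 18.5 bp from the start. Psmg1 scored 68.83 (chr16:95990616-95991336), and its peak was centred 16 bp from the start and reached to 753 bp from the end of Brwd1. The nearest midpoint was 114 kb from Psmg2 and 59.5 kb from Psmg4.

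None of the activator genes had a peak at an end or a listed start. Psme1 and Psme2, whose products form the interferon-inducible cap of the core particle, lie next to each other on chromosome 14 with nearest midpoints 17.95 and 13.05 kb away, at the ends of Dcaf11 and of Rnf31 and Irf9. The distances were 73.9 kb for Psme2b, 62.5 kb for Psme3, a nuclear activator, and 757 kb for Psme4, the largest distance of the 51 genes. Psmf1, the inhibitor gene, had no gene-end peak, but a peak of score 146.06 (chr2:151740927-151741558) lay over its listed start, 2.89 kb inside the record, with the midpoint 67.5 bp downstream. Of the 2 genes that encode no subunit, Psme3ip1 had a gene-end peak of score 57.99 (chr8:94601352-94602404). That peak also came within 1 kb of an end of Rspry1 and of LOC115486880. Psmc3ip had none, and its nearest midpoint was 9.69 kb away.

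The peaks at members spanned much of the range of the list. The 17 scores ran from 51.21 to 293.13 with a median of 110.79 and quartiles of 68.83 and 155.84. Over all protein-coding genes with a gene-end peak, the highest-scoring such peak of a gene had a median score of 75.61, and the median of all listed peaks was 70.12. Of the 17 member peaks, 12 scored at or above that median, 9 scored above 100 and 4 scored below 60. Among the 3033 coding genes with a gene-end peak, 1749 had one at or above that median. The 2466 peaks at any coding gene end had score quartiles of 59.9 and 106. The widths of the member peaks had a median of 796 bp, against 788.5 bp for the 2466 peaks at any coding gene end.

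**Figure D3:**
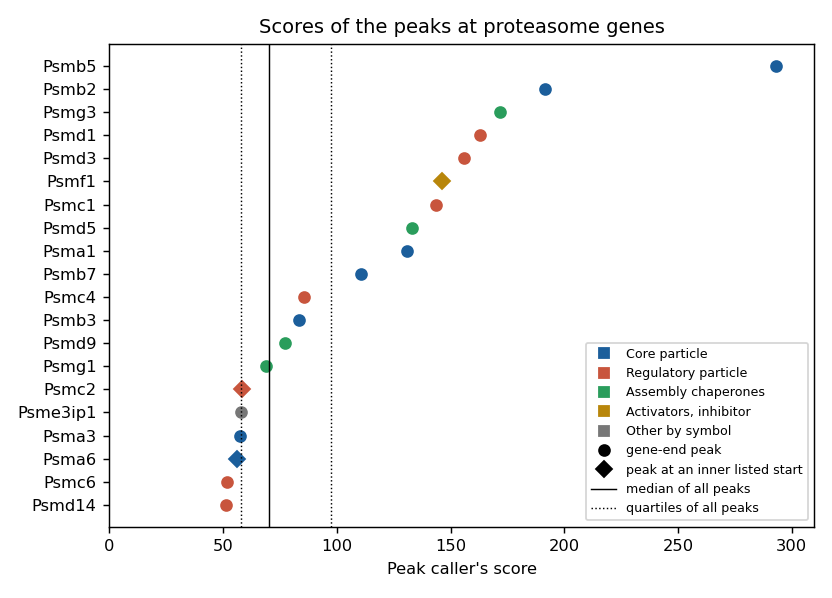
Score of the peak at each of the 20 genes with a peak over an end (circles) or only over an inner listed start (diamonds), coloured by class, with the median of all 5079 peaks (70.12, solid line) and their quartiles (57.9 and 97.53, dotted lines). Psmb5 stands highest at 293.13, and Psmd14 and Psmc6 lie lowest at 51.21 and 51.61.

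The strand of a gene was available through the RefSeq promoter table, which lists 1 or more starts of transcription, for 43 of the 51 members. Of the 17 genes with a gene-end peak, 14 had a known strand, and in all 14 the peak lay at the upstream end of the gene record. In 13 of them it covered a listed start, which was not counted over all protein-coding genes. The exception was Psma3, whose peak was centred 5521 bp from its listed start. Over all protein-coding genes with a gene-end peak and a known strand, the peak lay only at the upstream end in 88.6% (2241 of 2529), only at the downstream end in 7.16% and at both in 4.23%. The end was not determined for Psmb2, Psmb7 and Psmd3.

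Counted at listed starts in place of gene ends, with the same window of 1 kb, a peak was found at 16 of 43 members (37.2%), against 14.2% of 17492 protein-coding genes with a listed start. This count held 4 of 11 core particle genes, 6 of 14 regulatory particle genes, 4 of 6 assembly genes, 1 of 6 activator and inhibitor genes and 0 of 4 immunoproteasome genes. It gained Psma6, Psmc2 and Psmf1 and did not hold Psma3, whose peak lay away from the listed start. Nor did it hold Psmb2, Psmb7 and Psmd3, which have a gene-end peak but no listed start. Together, 20 members had a peak at an end or a listed start, and for 31 neither was found. Of these 31, Psma8, Psmb1, Psmc3, Psmd7 and Psmg2 have no listed start, so only their ends could be checked. This joint count was not made over all protein-coding genes, so it has no share to be read against. All 16 peaks at listed starts covered the start base, which was likewise not counted over all protein-coding genes. Their midpoints lay between 566 bp upstream and 281 bp downstream of the start, with a median of 86.8 bp upstream, and 11 of the 16 (68.8%) were upstream. Over the 2483 coding genes with such a peak, the median was 59.5 bp upstream and 65.2% were upstream.

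**Figure D4:**
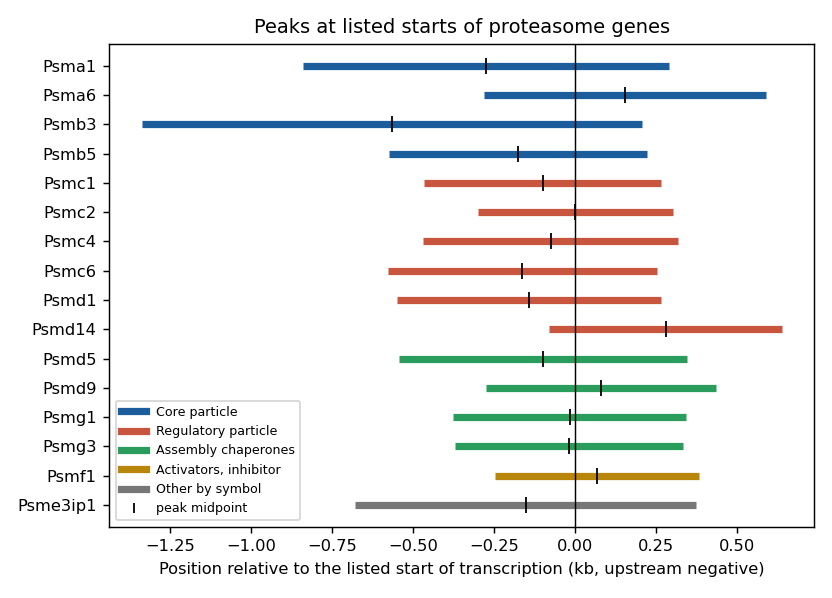
Extent of the peak at each of the 16 members with a peak at a listed start of transcription, in kb from that start along the gene's direction (upstream negative), coloured by class, with a black tick at the peak midpoint. Every bar crosses 0. The Psmb3 peak reaches farthest upstream and the Psmd14 peak farthest downstream.

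The window changed these counts little. A gene-end peak was found for the same 17 members with a window of 500 bp (13.0% of all coding genes), with the midpoint within 1 kb (13.1%) and with at least 50% of the peak in the window (13.1%). With a window of 5 kb, 21 members had one (18.3% of all coding genes), the added genes being Psma5, Psmc2, Psmd8 and Psmf1. With only the peaks that scored at or above the median of the list, 12 members had one (7.99% of all coding genes), and the genes lost were Psma3, Psmc6, Psmd14, Psme3ip1 and Psmg1.

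The promoter sequences, 250 bases before to 50 after each start, were compared by composition, which the choice of members did not use. A peak overlapped 16 of the 47 listed promoters of members, and 2662 of the 21263 listed promoters of protein-coding genes. These 16 promoters held 12 to 34 CpG dinucleotides (median 21), and the 31 without a peak held 1 to 41 (median 16), so the ranges overlap. Over all protein-coding genes the medians were 22 with a peak over the promoter and 10 without one. Of the 31 member promoters without a peak, 10 held fewer CpG than any member promoter with one. These were Psmb10 with 3, Psmb11 with 4, Psmb8 with 11, Psma3 and Psmd4 with 10 each, Psmd10 with 11 and Psme2b with 2. The others were 1 start each of Psma6 with 3, Psme3ip1 with 1 and Psme2 with 11. Of these genes, Psma3, Psma6 and Psme3ip1 had a peak at a gene end or at another listed start. The promoter of the remaining immunoproteasome gene, Psmb9, held 17. The promoter richest in CpG, that of Psma7 with 41, had no peak. The G and C content hardly differed between member promoters with and without a peak (medians 57.8 and 57.3%). How base composition bears on the recovery of fragments in this library was not tested.

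**Figure D5:**
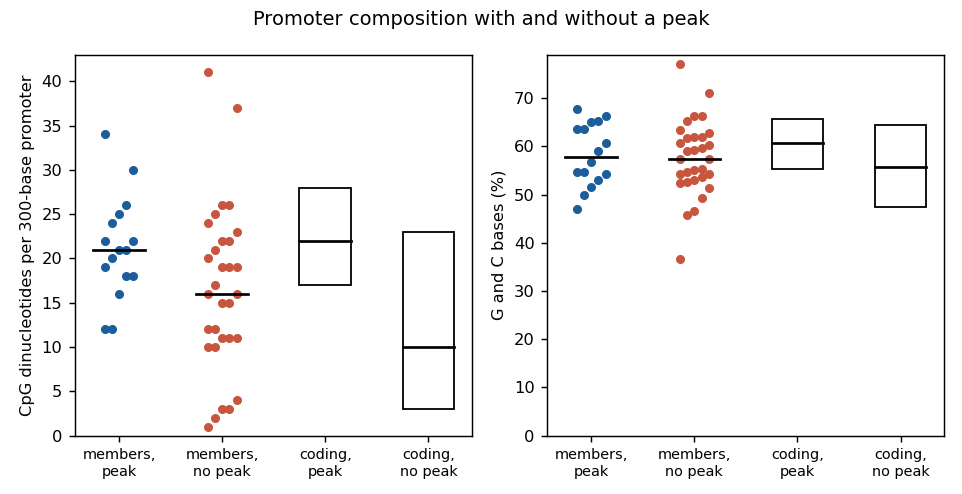
CpG dinucleotides per promoter of 300 bases (left) and percentage of G and C bases (right) for the 16 member promoters with a peak and the 31 without one (points, black line at the median) and for all protein-coding gene promoters with and without a peak (boxes from the lower to the upper quartile, line at the median). The CpG counts of members with a peak start at 12, those without one reach down to 1, and the ranges overlap.

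The genes with 2 listed starts allowed a comparison within a gene. In Psma6 the inner start, under the peak, had 22 CpG in its promoter and the outer start, without a peak, had 3. In Psme3ip1 the start under the peak had 21 and the other had 1. In Psmc2 the start under the peak had 21 and the start without a peak had 37, so the promoter with the peak was not always the one with more CpG. The fourth such gene, Psme2, had no peak at either start.

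Short motifs were searched on both strands of the same promoters. The letters CCGGAAG, the core bound by ETS transcription factors, were found in 7 of the 16 member promoters with a peak (43.8%) and in 10 of the 31 without one (32.3%). Over all promoters in the table the share was 8.86%, and over those of protein-coding genes it was 27.4% with a peak and 9.30% without one. Among the sequences printed above, Psmg3, Psmc1, both starts of Psmc2 and the inner start of Psma6 held a match, and so did Psmd11, which had no peak at its start. The letters TGACNNNGC, the core of the antioxidant response element through which Nfe2l1 and Nfe2l2 raise proteasome gene expression, were found in 3 of the 16 promoters with a peak and 3 of the 31 without one, beside 12.4% of all promoters. The promoter of Psmb5 held a match in the stretch shown, and those of Psmc6, Psmd9, Psmb6, Psmd12 and Psme4 held the other matches. GGGCGG (GC box) was found in 8 of the 16 and 17 of the 31 (54.8%), beside 35.7% of all promoters. Over protein-coding genes its share was 63.4% with a peak and 43.7% without one, a difference not seen in the same direction among members. CCAAT was found in 5 of the 16 and 11 of the 31, beside 37.4%. GC boxes can overlap one another, as in the stretch shown for Psmd1. TATAAA was found in 1 and 3 of these promoters (13.6% of all), GCATGCGC, part of the site of nuclear respiratory factor 1, in 1 and 2 (2.71%), AAGATGGC (YY1) in 0 and 3 (2.75%), where coding genes had 7.06% with a peak and 2.48% without one, and TGACGTCA (CRE) in 0 and 0 (1.79%). A match describes the letters and does not show that a factor was bound.

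Proteasome pathway genes with other names were counted from a list of 32, of which 31 matched the annotation. A gene-end peak was listed for 10 of the 31 (32.3%, against 13.9% of all coding genes), and for 5 of the 31 (16.1%, against 7.99% of all coding genes) with only the peaks at or above the median score. Of the 6 genes for ubiquitin and its activating enzymes, 4 had a gene-end peak. Ubb, which encodes a chain of ubiquitin repeats, had a peak of score 56.29. Rps27a, which encodes ubiquitin fused to a ribosomal protein, had one of 75.03 that also came within 1 kb of an end of Clhc1. The activating enzyme gene Uba1 had one of 103.37. Uba6, the gene of the other activating enzyme, had none. Of the 15 genes for factors that belong to or bind the proteasome, 4 (26.7%) had a gene-end peak. Uchl5, a deubiquitinase of the regulatory particle, had a peak of 118.59 that also came within 1 kb of an end of Ro60. Zfand2a had one of 57.51 and Zfand2b had one of 56.0. Adrm1 and Sem1, subunit genes of the regulatory particle with other names, had none, and Usp14, a second deubiquitinase on the particle, had none. Akirin2, a factor in the nuclear import of proteasomes, had a peak of 62.09, and Pomp, the maturation factor of the core particle, had none.

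The 5 genes tied to transcriptional control of the proteasome had no gene-end peak, which in a list this small is not shown to be a lower share than the 13.9% of all coding genes. The nearest midpoint lay 213 kb from Nfe2l1, 86.8 kb from Nfe2l2, 67.4 kb from Ddi2, 243 kb from Ngly1 and 25.2 kb from Vcp. Tap1 and Tap2, the peptide transporter genes that lie beside Psmb8 and Psmb9, had none either. Tapbp, the gene of tapasin in the same MHC region, had a peak of score 120.8. That peak also came within 1 kb of an end of Rgl2.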

How the data were processed

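Chromatin immunoprecipitation sequencing was analysed from 1 deposited list of peaks for the anti-Usp16 library. No peak list or signal of the IgG library was used. Peaks had been called by the authors with MACS in Galaxy, per the file headers. Bowtie, Picard and mm10 appear without version numbers in the submitters' processing notes. Which MACS release and options were used, and whether IgG served as its control, is not stated in the labels or headers. The deposited score of each peak is the authors' value and was used only within the list.

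Peak starts were converted to 1-based positions. Genes came from RefSeq for GRCm38.p6, and strand, starts and promoter sequences from a RefSeq table that matched 43 of the 51 members. Overlaps were computed in Python 3.11.15 with pandas 2.3.3 and numpy 2.4.6, intervals with scipy 1.17.1, and the overlap step was tested on simulated data. The 33 peaks outside the assembled chromosomes entered no gene count. All members are named, some genes of the list of other pathway genes are not reported here, and promoters were printed by a rule on score and class, to which both starts of Psmc2 and Psma6 were added after their values were seen. The members, gene lists and motifs were chosen with earlier results of these data known. Counts were recomputed with other windows, overlap rules, score limits and at listed starts.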

Additional observations from a re-analysis of the deposited data

How the results depend on the processing

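The counts of members, and of core particle, regulatory particle, immunoproteasome and assembly genes, stayed within 1.5 times their main value under every alternative run. The core particle count reached that limit, from 6 to 4, at listed starts and without peaks at tRNA gene ends. The regulatory particle count did so, from 6 to 4, with peaks at or above the median score. The share of all coding genes also changed with the setting, from 13.9% to 7.99% in that last one. The median score of the members' peaks, which was 110.79 in the main setting, also stayed within 1.5 times. It was 84.5 at listed starts, 85.63 with a window of 5 kb and 138.3 with peaks at or above the median score. The median of 75.61 over all coding genes is of the main setting only, so the difference was not compared across settings. At listed starts only 43 of the 51 members could be counted. The count of activator and inhibitor genes was 0 and became 1, through Psmf1, with a window of 5 kb and at listed starts. The count of other pathway genes was 10 and became 5 with peaks at or above the median score. Leaving out peaks at tRNA gene ends, and leaving out Psmc3ip and Psme3ip1, were chosen after seeing the data. No paired analysis was possible because there was 1 library per antibody and 1 peak list. With the depth unknown and no score under 50 listed, a gene without a peak cannot be told apart from one with a weaker signal, and the small classes limit every comparison between them.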

Other observations

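The 6 annotated proteasome pseudogenes that carry member-like symbols, such as Psmb5-ps and Psmb7-ps2, had no gene-end peak. With so few, this is not shown to be below the 13.9% of all protein-coding genes. The share over all pseudogenes was not counted. Their nearest peak midpoints lay between 7.56 and 647 kb away.

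For 31 members no peak was found at an end or a listed start, some of them without a listed start to check. Of the 31, 6 had a peak midpoint within 10 kb of an end, namely Psma5, Psmb11, Psmc5, Psmd8, Psmd11 and Psmc3ip. The median distance over the 31 was 59.5 kb. Over the 51 members the median distance to the nearest midpoint was 11.0 kb, and over all protein-coding genes it was 78.8 kb.

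The genes with a gene-end peak were longer than those without one, with medians of 18.9 and 8.20 kb (17 and 34 members). Over all protein-coding genes the medians were 18.1 and 17.0 kb. The lengths of the 2 sets of members overlap, and the difference was not tested.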
